A study of Mus musculus with 18 samples.

Results

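Progenitors that can give rise to dendritic cells (DCs) after loss of TRIM33 were compared between a myeloid and a lymphoid pool of the bone marrow. The libraries were those labelled Trim33-/-, 3 of CD115- common DC progenitors (CD115- CDPs) and 3 of common lymphoid progenitors (CLPs), 6 of the 18 RNA-seq libraries of the series. All mice were C57BL/6, 6 to 8 weeks old, and carried loxP sites in both alleles of Trim33 (Trim33 fl/fl). The knockout (KO) mice also carried Cre-ERT2, a recombinase that tamoxifen switches on throughout the body, so that exons 2 to 4 of Trim33 could be removed in all cells, surrounding marrow cells included. The wild-type (WT) mice were Trim33 fl/fl without Cre. According to the methods of the study, tamoxifen was given at 2 mg a day for 5 days, and marrow was taken 7 days later. A further 3 WT CD115- CDP and 3 WT CLP libraries served here only to show which differences between the pools were also present with TRIM33. CD115- CDPs had been sorted as lineage-negative, CD11c-, FLT3+ and CD117-intermediate cells without CD127 and CD115, and CLPs as lineage-negative, CD11c-, FLT3+ cells with CD127. Nothing in the labels says whether libraries of one group came from separate mice or pools, so the p-values measure the spread between these libraries only.

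TRIM33 is a nuclear protein of the tripartite motif family that binds modified histones and SMAD proteins and takes part in transcription in blood cells. Plasmacytoid DCs (pDCs) secrete type I interferon when they sense viral nucleic acid, and they can arise along myeloid and lymphoid routes. Conventional DCs (cDCs) take up antigen and present it to T cells. CLPs are the pool from which B cells and other lymphocytes arise, and they depend on the interleukin 7 receptor, of which CD127 is a chain.

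The promoters of 3 genes are shown because each stands for one of the patterns described below. Rag1, which encodes a subunit of the recombinase of antigen receptor genes, was among the genes with the largest deficit in KO CD115- CDPs against KO CLPs. Spib, a transcription factor of pDCs, and Bst2, a surface protein of pDCs that interferon induces, were called lower in WT CD115- CDPs than in WT CLPs and were not called between the KO pools. Each window holds 250 bases before and 50 bases from the annotated start, on the minus strand of GRCm38.p6, from RefSeq. Capitals mark CANNTG (the E-box, which basic helix-loop-helix proteins bind) in Rag1 and Spib, and a motif of interferon regulatory factors (GAAA, any 2 bases, GAAA) in Bst2.
Rag1 (chr2:101649483-101649782): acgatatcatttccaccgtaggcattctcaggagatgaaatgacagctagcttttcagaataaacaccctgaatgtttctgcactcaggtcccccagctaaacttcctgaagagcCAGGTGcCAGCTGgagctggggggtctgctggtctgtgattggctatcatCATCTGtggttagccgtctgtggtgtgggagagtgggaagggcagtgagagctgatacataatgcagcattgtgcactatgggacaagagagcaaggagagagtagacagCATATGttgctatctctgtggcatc
Spib (chr7:44532022-44532321): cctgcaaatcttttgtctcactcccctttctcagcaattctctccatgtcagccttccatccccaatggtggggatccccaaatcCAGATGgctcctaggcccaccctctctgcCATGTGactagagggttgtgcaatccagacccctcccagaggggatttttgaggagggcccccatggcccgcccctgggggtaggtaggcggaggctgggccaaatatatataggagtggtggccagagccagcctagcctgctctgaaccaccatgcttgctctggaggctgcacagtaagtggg
Bst2 (chr8:71537423-71537722): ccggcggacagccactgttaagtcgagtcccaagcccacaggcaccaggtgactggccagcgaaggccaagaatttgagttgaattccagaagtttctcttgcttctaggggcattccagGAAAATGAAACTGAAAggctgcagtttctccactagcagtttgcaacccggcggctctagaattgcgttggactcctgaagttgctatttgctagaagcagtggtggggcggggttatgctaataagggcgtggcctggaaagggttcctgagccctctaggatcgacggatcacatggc
CANNTG was present 4 times in the Rag1 window, 2 times in that of Spib and 2 times in that of Bst2, and 72.3% of the 32851 promoters of this length held it. The interferon regulatory factor motif was present 2 times in the Bst2 window, in overlapping copies, and in 3.44% of all promoters. CAGGTG, one form of the E-box, was present in 20.2% of promoters and in the Rag1 and Bst2 windows. GAGGAA (28.3% of promoters), GAGGAAGT (3.2%), CTTTGA (16%) and TCCC, any 2 bases, GGGA (0.904%) had no match in the 3 windows. Each is a single form of an ETS, PU.1, TCF or EBF motif. Other forms, such as those around the shorter ETS core GGAA, were not counted, so the windows may hold such motifs. Both strands were searched, and a match is a description of letters only.

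Values are given as TPM, here the deposited FPKM (fragments per kilobase of transcript and per 1000000 mapped reads) rescaled so that the 18169 genes listed in the tables of both pools sum to 1000000 in each library. Trim33 itself (Entrez 94093, chr3:103279293-103358770) was at 18.0, 14.1 and 7.07 TPM in the KO CD115- CDP libraries and at 15.8, 11 and 15.6 TPM in the KO CLP libraries. It was at 28.1, 29.7 and 15.6 TPM in WT CD115- CDPs and at 27.6, 14.3 and 17.6 TPM in WT CLPs. The lowest WT libraries lay within the range of the KO libraries in each pool, and a value for the whole gene includes exons outside the deleted ones, so it does not measure the deletion. The difference between the KO pools was -0.18 ± 0.33 on the log2(TPM + 1) scale (SE, 3 against 3, adjusted p = 0.71, limma), and its sign turned under the other scalings.

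The gates were read in the genes of the sorted proteins. Il7r, which encodes CD127, was at 21.0, 14.0 and 5.56 TPM in KO CD115- CDPs and at 79.2, 76.1 and 87.5 TPM in KO CLPs, as the gate sets it. Every CD115- CDP library lay below every CLP library, and Il7r was called lower (log2 difference -2.66 ± 0.40, adjusted p = 0.0207, limma). Flt3, the receptor of the DC growth factor FLT3 ligand, was at 380.3, 324 and 301 TPM against 644, 643 and 669 TPM (-0.97 ± 0.11, adjusted p = 0.0156), just short of the fold required for a call. Csf1r, the gene of CD115, was at 21.3, 15.7 and 65.3 TPM in KO CD115- CDPs and at 10.6, 11.3 and 15 TPM in KO CLPs. Its mRNA was therefore present in the pool sorted for absence of the protein, at the highest level in replicate 3 (1.15 ± 0.48, adjusted p = 0.116). Ly6a, the gene of Sca-1, was at 25.1 to 29.1 TPM against 38.8 to 62.1 TPM (-0.92 ± 0.21, adjusted p = 0.0312). Kit (-0.65 ± 0.41), Cd34 (-0.08 ± 0.26) and Itgax (-0.53 ± 0.20), the gene of CD11c, did not pass the test, with adjusted p of 0.26, 0.83 and 0.091. Without CD115- CDP replicate 3, Kit was called lower (-1.12, adjusted p = 0.00577, limma), Cd34 differed by -0.41 and Itgax by -0.60, and the difference of Csf1r was 0.55.

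The libraries of 1 pool were not alike. Estimated depth was 19.3 to 21.3 M mapped reads in all 12 libraries, so that 1 read in a 2000-base transcript is worth 0.0259 FPKM at the lowest depth. The median SD of a gene on the log2 scale was 0.303 over the KO CD115- CDPs and 0.146 over the KO CLPs. KO CD115- CDP replicate 3 stood apart from replicates 1 and 2, and values with and without it are given below. Y-linked genes, 4 in all, summed to 43.2, 1.94 and 0 TPM in the KO CD115- CDP libraries and to 0.232, 59.8 and 106 TPM in the KO CLP libraries, so the sex of the mice differed between libraries. None of the 5 sex-linked genes listed was called, and the part of sex in the results was not tested. In bulk RNA, fewer cells of a type and less RNA per cell cannot be told apart. The pools were also deposited in separate tables, so that pool and table cannot be told apart either.

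Of 12343 genes tested, 114 were called higher in KO CD115- CDPs than in KO CLPs (0.924% of those tested) and 915 lower (7.41%). A call required a log2 difference of 1 or more in size and an adjusted p no higher than 0.05 (limma). The excess of lower calls went with a shift of all genes: the median log2 difference was -0.33, and 26.4% of genes had a difference above 0. With the FPKM as deposited the median was -0.14, with 90 genes higher and 245 lower. After median ratio scaling it was -0.01, with 160 and 220, and after quantile normalization -0.02, with 145 and 148. The differences below include that shift, and 82 higher and 118 lower genes were called under all 4 scalings. The number of calls depended on which libraries were used. Without KO CD115- CDP replicate 3 the counts grew to 451 and 1682, of which 105 and 839 were among the first calls. Without replicate 1 they were 38 and 422. Without KO CD115- CDP replicate 2 they fell to 3 and 4, and without KO CLP replicate 1, 2 or 3 to 2 and 10, 4 and 5, and 2 and 6. Only 4 genes were called in each of these 6 fits, Anxa2, Hist1h2ap, Mir686 and Tmem121 (the last named after its value was seen). The size of the differences moved less: 91 of the 114 and 431 of the 915 kept an absolute log2 difference of at least 1 in each of the 6 fits.

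The 12 genes with the largest excess in KO CD115- CDPs included chemokine, granule and stefin genes beside 2 histone genes. Cxcl10 and Ccl5 encode chemokines for activated T cells. Cxcl10 was at 189.9, 195 and 41.6 TPM in KO CD115- CDPs and at 4.93, 20.2 and 11.6 TPM in KO CLPs (log2 difference 3.32 ± 0.68, adjusted p = 0.027, limma). Ccl5 was at 89.9, 109 and 12.1 TPM against 3.2, 5.72 and 4.31 TPM (3.26 ± 0.75, adjusted p = 0.0322). For both, replicate 3 of the CD115- CDPs was the lowest of its group. Libraries that did not overlap between the pools were a condition for naming all 12 genes. Cxcl10 overlaps the gene Art3, and the strand of the reads is not stated. Libraries of the pools did not overlap for 47.2% of all genes tested, in either direction, so that separation alone was common.

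Prg2, the major basic protein of eosinophil granules, was at 57.5, 56.7 and 70.0 TPM against 11, 1.61 and 10.7 TPM (3.12 ± 0.56, adjusted p = 0.0234). Cpa3, a carboxypeptidase of mast cells and basophils, was at 10.4, 5.53 and 40.2 TPM against 0.695, 1.34 and 1.65 TPM (2.73 ± 0.62, adjusted p = 0.0316). Prtn3, a protease of early granulocytes, was at 253, 182 and 1508 TPM against 48.5, 58.4 and 91.1 TPM (2.67 ± 0.73, adjusted p = 0.0439). Cpa3 and Prtn3 owed much of their mean to replicate 3, without which their log2 differences were 1.98 and 1.74. Tnfaip2, which TNF induces in myeloid cells, was at 28.4, 29.4 and 12.5 TPM against 1.83 to 2.63 TPM (2.88 ± 0.34, adjusted p = 0.0156). Anxa2, which binds membrane lipids in the presence of calcium, was at 103, 99.2 and 116 TPM against 10.9, 16.1 and 15.8 TPM (2.83 ± 0.19, adjusted p = 0.00327), with the smallest SE of the 24 genes named by size. Tcf7, a transcription factor of T and innate lymphoid precursors, was at 28.4, 14.4 and 28.2 TPM against 2.0 to 2.8 TPM (2.82 ± 0.29, adjusted p = 0.0147). The gene overlaps its neighbour Skp1, but of the 2575 windows of read length in its transcripts, 0 occur in a transcript of another gene.

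The 12 genes with the largest deficit in KO CD115- CDPs included Rag1 and several genes of the B lineage, beside 4 short RNAs. Under all 4 scalings 4 of these 12 were called, Rag1 among them, against 11 of the 12 with the largest excess. Rag1 was at 9.36, 3.98 and 1.63 TPM in KO CD115- CDPs and at 102, 107 and 119 TPM in KO CLPs (log2 difference -4.42 ± 0.45, adjusted p = 0.0147, limma). Igll1, a chain of the surrogate light chain of the pre-B cell receptor, was at 39.3, 17.3 and 0.825 TPM against 76.0, 233 and 236 TPM (-3.88 ± 1.07, adjusted p = 0.045). Pou2af1, a coactivator in B cells, was at 12.5, 5.51 and 0.509 TPM against 29.7, 68.0 and 69.1 TPM (-3.38 ± 0.76, adjusted p = 0.0312). In each of these the CD115- CDP libraries followed one order, with replicate 1 highest and replicate 3 lowest. Igll1 was called under none of the other 3 scalings, and Pou2af1 and, of the genes below, Pax5 under the FPKM as deposited alone. Without CD115- CDP replicate 3 the differences were -2.58 for Igll1, -2.50 for Pou2af1 and -2.31 for Pax5. Pax5, the factor that commits cells to the B lineage, was at 12.2, 4.08 and 0.509 TPM against 29.4, 39.7 and 54.0 TPM (-3.13 ± 0.71, adjusted p = 0.0316). 5730488B01Rik, a long noncoding RNA within Pax5, shared 26.0% of its 50-base windows with Pax5 and differed by -3.05 ± 0.49 (adjusted p = 0.022). Gfra2, a receptor for a neurotrophic factor, differed by -3.11 ± 0.56 (adjusted p = 0.0233), and Cplx2, a protein of vesicle release, by -3.06 ± 0.47 (adjusted p = 0.0207).

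The remaining 4 genes of that group were short RNAs listed as Mir686, Snord14e, Mir6979 and Mir6907, which a library of polyadenylated RNA is not made to capture. Mir686 was listed at 0 in all 3 KO CD115- CDP libraries and at 36.1, 44.9 and 23.2 TPM in KO CLPs, and every one of its 50-base windows lies in a transcript of Psmb5. Snord14e (-3.50 ± 0.75, adjusted p = 0.0293, limma) lies in Hspa8 in the same way. Mir6907 (-2.85 ± 0.59, adjusted p = 0.0274) overlaps Rrp1, and Mir6979 (-2.90 ± 0.66, adjusted p = 0.0319) overlaps Diaph1. Mir6907 and Mir6979 hold only 22 and 7 windows of 50 bases, none of which occurs in a transcript of another gene. The values of all 4 short RNAs are uncertain.

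**Figure D1:**
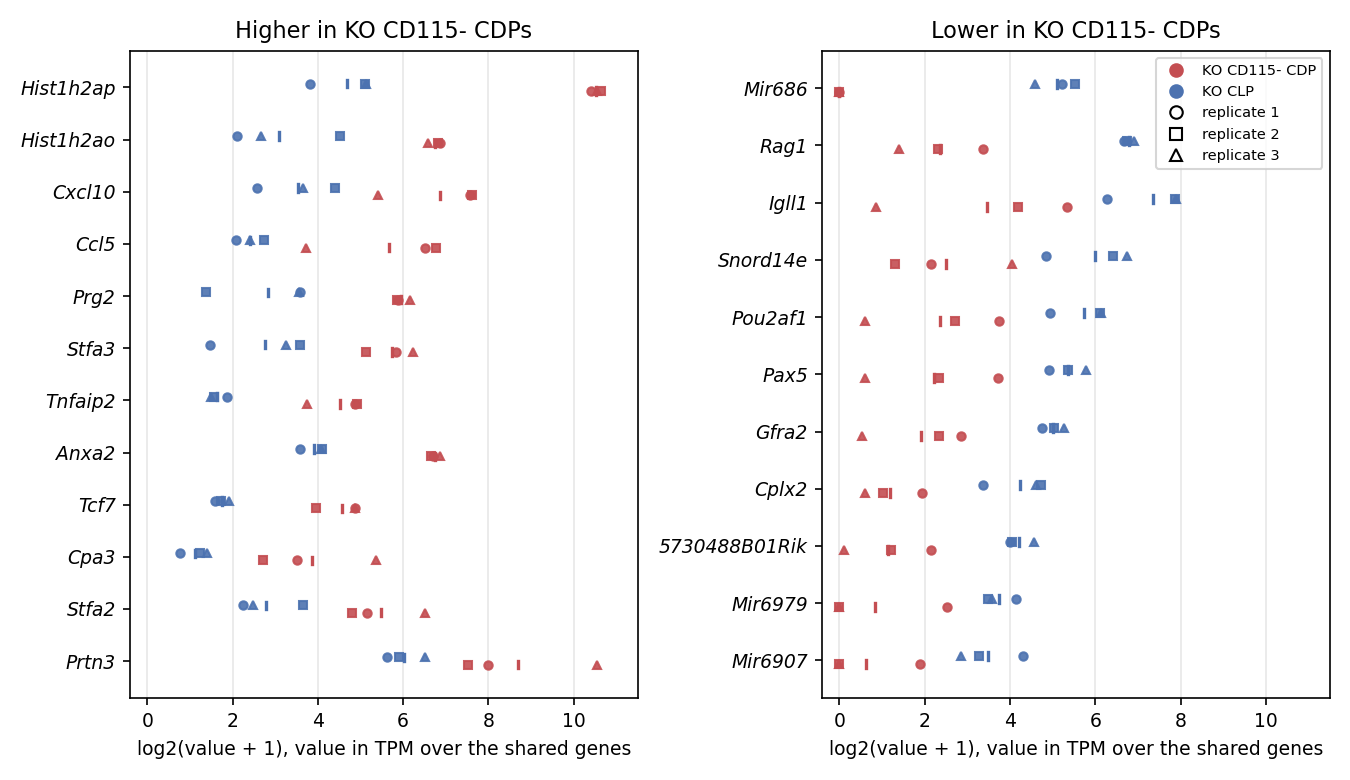
The 12 genes with the largest excess (left) and 11 of those with the largest deficit (right) in KO CD115- CDPs against KO CLPs, on a log2(TPM + 1) axis, with 1 point for each of the 6 libraries (circle, square and triangle for replicates 1, 2 and 3) and a bar at the mean of each group of 3. Libraries that do not overlap between the pools were a condition for naming these genes. Replicate 3 of the CD115- CDPs is the highest of its group for Prtn3 and Cpa3 and the lowest for Igll1, Pou2af1 and Pax5.

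Early B lymphoid genes were lower in KO CD115- CDPs as a list. All 22 genes listed were tested, and 12 were called lower and none higher. Il7r, whose difference the gate sets, is among the 12. Each of the 22 had a difference below 0, and the libraries did not overlap for 21. Over all genes, 7.41% were called lower, 26.4% had a difference above 0 and 47.2% had libraries that did not overlap, in either direction. The median difference was -2.38, where that of all genes was -0.33, and it lay between -2.19 and -2.04 under the other scalings. Beside those above, Rag2 (-2.62 ± 0.30, adjusted p = 0.0156, limma), Dntt, the terminal transferase that adds bases at receptor gene joins (-1.64 ± 0.26, adjusted p = 0.0215), Bach2, Bst1 and Cd79b were called. Dntt was nevertheless abundant in KO CD115- CDPs, at 1838, 1573 and 857 TPM against 3984 to 4473 TPM in KO CLPs. Ebf1, an early B cell factor, was at 24.4, 15.5 and 1.0 TPM against 37.3 to 54.4 TPM and did not pass the test (-2.28 ± 0.86, adjusted p = 0.0902). Of the 22, 7, 4 and 5 were called under the FPKM as deposited, median ratio scaling and quantile normalization, and 16 without CD115- CDP replicate 3, which held 1172 TPM of these genes in sum against 3026 and 2611 TPM in replicates 1 and 2.

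Of 19 granulocyte genes tested, 8 were called higher and none lower (Prtn3, Ngp, Camp, Ltf, S100a8, S100a9, Lcn2 and Hp), with a median of 1.72. Among all genes 0.924% were called higher, and the median was -0.33. Prtn3 apart, these belong to later granule stages and to the inflammatory proteins of neutrophils. Ngp, a protein of secondary granules, was at 201, 136 and 219 TPM in KO CD115- CDPs and at 17.1, 63.2 and 32.5 TPM in KO CLPs (2.43 ± 0.43, adjusted p = 0.0233, limma). S100a8, a calcium-binding protein of neutrophils, was at 258, 178 and 398 TPM against 26.3, 112 and 101 TPM (1.96 ± 0.56, adjusted p = 0.0475). Mpo, the myeloperoxidase of primary granules, was at 618, 421 and 3716 TPM against 283 to 309 TPM and did not pass (1.72 ± 0.72, adjusted p = 0.115). The CD115- CDP libraries differed among themselves for Mpo by more than the pools did without replicate 3 (log2 difference 0.77). The summed level of the granulocyte list was 2345, 1623 and 8397 TPM in KO CD115- CDPs and 745 to 1111 TPM in KO CLPs. The count of calls was 4, 8 and 6 under the other 3 scalings and 9 without replicate 3. Ly6g, the neutrophil antigen of the lineage stain, was higher as well (1.41 ± 0.39, adjusted p = 0.0459), and the part of stained-out cells in these calls was not tested.

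Of 5 eosinophil genes tested, 4 were called higher (Prg2, Epx, Ear1 and Ear2), also under the other 3 scalings and without CD115- CDP replicate 3. The share of all genes called higher was 0.924%. Ear1, an eosinophil ribonuclease, was at 7.27, 5.88 and 4.58 TPM against 1.26, 0 and 0.609 TPM. Of 6 basophil and mast cell genes tested, 3 were called higher under every scaling (Mcpt8, Cpa3 and Hdc). Mcpt8, a protease of basophils, was at 26.2, 13.3 and 75.4 TPM against 2.42, 6.31 and 5.53 TPM (2.50 ± 0.60, adjusted p = 0.0337, limma). Of 17 monocyte and macrophage genes tested, 2 were called higher, Cd14, a coreceptor for bacterial lipopolysaccharide (2.53 ± 0.43, adjusted p = 0.0233), and Lgals3, a galectin of macrophages (1.38 ± 0.25, adjusted p = 0.0242). F13a1 and Ccr2, which mark monocytes, were high in replicate 3 alone, at 100 and 22.0 TPM, and were not called. Of 15 erythroid and megakaryocyte genes tested, 1 was called, the globin gene Hbb-bt (higher, 1.38, adjusted p = 0.0474), at 10.3, 18.9 and 34.2 TPM against 5.99 to 7.86 TPM. None of the 15 was called with the FPKM as deposited, and without CD115- CDP replicate 3 none was higher and 3 were lower.

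T cell and innate lymphoid genes moved in both directions. Of 16 tested, Tcf7, Gata3 and Il2rb were called higher and Notch1 and Lck lower, where 0.924% of all genes were higher and 7.41% lower. Gata3, a factor of T helper and innate lymphoid cells, was at 8.89, 9.73 and 2.81 TPM against 1.4 to 1.66 TPM (1.55 ± 0.39, adjusted p = 0.0379, limma), and Il2rb, a receptor chain for interleukins 2 and 15, was at 14.4, 14.6 and 6.58 TPM against 0.821 to 1.98 TPM (2.34 ± 0.34, adjusted p = 0.0204). Notch1, the receptor that directs lymphoid progenitors to the T lineage, was at 91.9, 56.7 and 68.4 TPM against 148 to 236 TPM (-1.38 ± 0.23, adjusted p = 0.023).

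Of 18 pDC genes tested between the KO pools, 2 were called lower and none higher, where 7.41% of all genes were lower and 0.924% higher. The 2 were Bcl11a, a factor that pDCs and B cells need (-1.38 ± 0.21, adjusted p = 0.0207, limma), and Ccr9, a homing receptor (-1.12 ± 0.28, adjusted p = 0.0373). Of these, 1 was called under each of the other scalings. The median of the list was -0.28, close to that of all genes, and lay between -0.10 and 0 under the other scalings. The summed level of the list was 813 to 1127 TPM in KO CD115- CDPs and 1032 to 1149 TPM in KO CLPs. Irf8, a factor that cDC1s and pDCs need, was at 177, 151 and 496 TPM against 399, 296 and 299 TPM (-0.47 ± 0.42, adjusted p = 0.424), and the direction in replicate 3 was opposite to that in replicates 1 and 2. Klk1 and Cd209d were listed at 0 in all 6 KO libraries. Tcf4, the factor that drives the pDC fate, was at 23.8 to 36.1 TPM against 46.0 to 59.0 TPM (-0.87 ± 0.20, adjusted p = 0.0313), short of the fold required.

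Of 16 cDC genes tested, Nfil3, a factor upstream of cDC1s, was called higher (114, 131 and 56.1 TPM against 20.3 to 26.4 TPM, 2.02 ± 0.31, adjusted p = 0.0209, limma), and Mycl, a MYC family member of DCs, was called lower (2.3 to 3.14 TPM against 6.53 to 7.33 TPM, -1.10 ± 0.19, adjusted p = 0.0233). Nfil3 kept its call under all 4 scalings and Mycl under none of the other 3. Among all genes 0.924% were called higher and 7.41% lower. Without CD115- CDP replicate 3, 5 cDC genes were called higher and 1 lower. Of 10 genes of MHC class II presentation, only H2-Ob, a chain of a class II chaperone, was called (lower, -1.34 ± 0.31, adjusted p = 0.0321). The median of the class II list was -0.0040 and turned positive under the other scalings.

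Among 42 transcription factors of lymphoid, myeloid and DC fates, 2 were called higher and 10 lower, against 0.924% and 7.41% of all genes. Spi1, which encodes PU.1, was at 254, 269 and 267 TPM in KO CD115- CDPs and at 144, 119.8 and 124 TPM in KO CLPs (1.03 ± 0.12, adjusted p = 0.0156, limma), and Nfil3 was the other. Pax5, Ets1, Mycn, Notch1, Bcl11a, Myb, Bach2, Mycl, Stat5b and Satb1 were lower. Ets1, an ETS factor of lymphocytes, was at 24.4, 14.1 and 7.48 TPM against 59.6 to 73.9 TPM (-2.18 ± 0.37, adjusted p = 0.0233). Under the other scalings 2 or 3 were called higher and between 4 and 6 lower. The median of the list was -0.54 and stayed below 0 under each scaling.

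The other lists are given by their counts of calls, where 7.41% of all genes were called lower and 0.924% higher. Of 21 cytokine receptor genes, 3 were lower (Il6st, Il10ra and Il7r, whose difference the gate sets). Of 30 cell cycle genes 2 were lower (Mki67 and Top2a), neither under another scaling. Of 18 interferon-stimulated genes 3 were lower (Oas2, Usp18 and Ifi44), of 17 immediate early genes 2 were lower (Fos and Jun), and of 8 heat shock genes none was called. Of 14 stem and multipotent progenitor genes, Procr and Myct1 were higher and Erg and Mycn lower. Of 12 genes of TRIM33 and the SMAD pathway, Smad1 and Smad7 were lower, with Smad7, an inhibitor of TGF-beta signalling, at 35.5 to 64.1 TPM against 127 to 167 TPM (-1.53 ± 0.23, adjusted p = 0.0207, limma). Of 17 lysosomal genes Ctsh was higher, of 10 Toll-like receptor genes and partners Tlr2 and Cd14 were higher, of 19 homing genes Itgb7 was higher and Ccr9 lower, and of 15 genes of the BCL2 family Bok was lower. The medians of the cytokine receptor, lysosomal, homing and SMAD lists were below 0 here and turned above 0 under 1 or more of the other scalings. Of 8 genes of mature lymphocytes and plasma cells 1 was called (Sdc1, lower), of 5 genes of the lineage stain 1 was called in each direction, and of 5 stromal genes none was called. No ribosomal protein gene of 83 was called, but 79 had a difference above 0 and 58 were separate and higher in CD115- CDPs. Over all genes, 26.4% had a difference above 0 and 47.2% were separate in either direction. Together these held 284800 to 325500 of each 1000000 TPM in KO CD115- CDPs and 229440 to 256910 in KO CLPs.

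**Figure D2:**
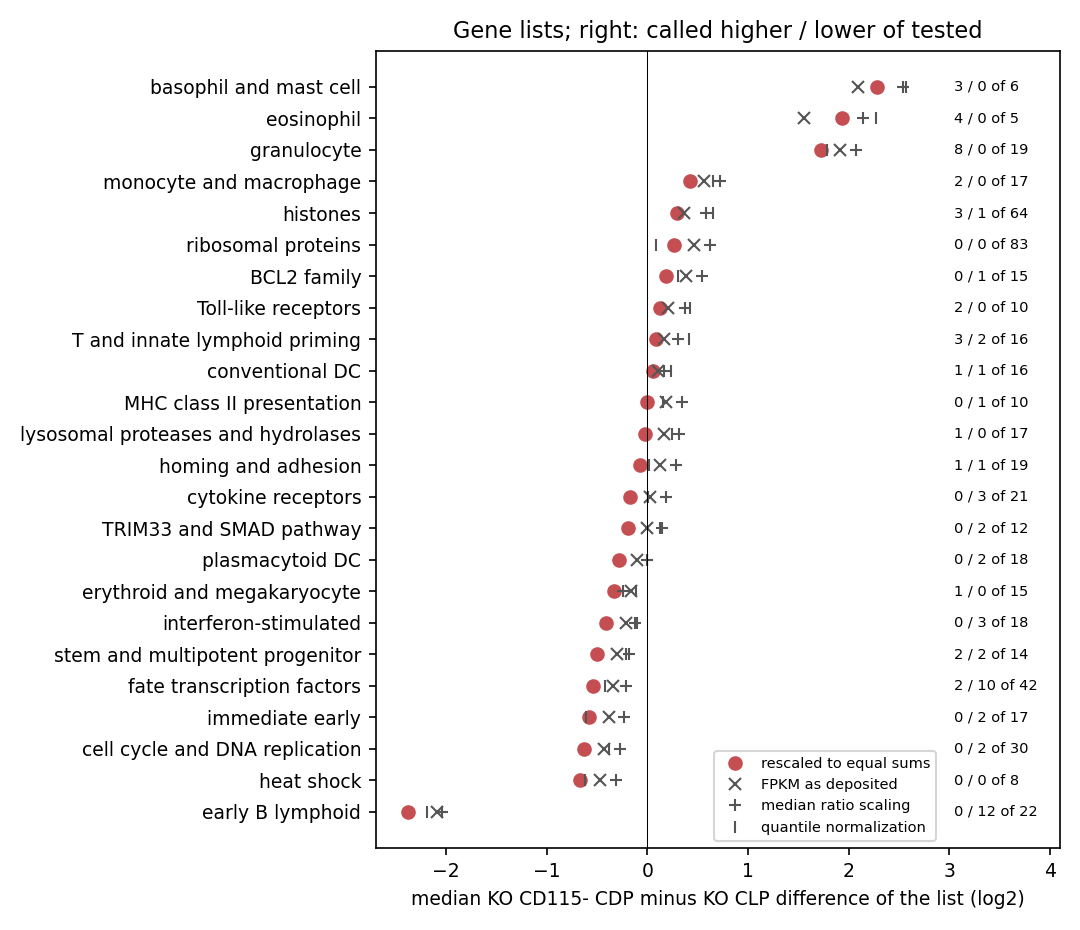
Median log2 difference of each gene list between KO CD115- CDPs and KO CLPs, with a filled circle for the values rescaled to equal sums and a cross, plus or bar for the other 3 scalings, and at the right the number of genes called higher and lower of those tested. Early B lymphoid genes lie far to the left with 12 of 22 called lower, and basophil, eosinophil and granulocyte genes far to the right, under all 4 scalings.

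The KO CD115- CDP libraries differed more among themselves than the KO CLPs. Of 12063 genes with a measurable level, 45 were at least 4-fold higher in replicate 3 than in both others and 212 at least 4-fold lower. In the KO CLPs, 33, 31 and 27 genes set replicate 1, 2 or 3 apart from both others in this way, in either direction. The genes here were chosen from the lists after their values were seen. Among the genes that were high in replicates 1 and 2, Relb, an NF-kB subunit, was at 97.2, 104 and 7.23 TPM, Zbtb46, a factor of cDCs, at 9.99, 12.2 and 0.0702 TPM and Gzmb, a granzyme, at 11.3, 13.9 and 0.0702 TPM. Others were high in replicate 3. Elane, the neutrophil elastase, was at 62.8, 39.3 and 466 TPM, Ctsg, a granule protease, at 139.7, 93.3 and 884 TPM and F13a1 at 12.5, 8.03 and 100.2 TPM. Of the 45 and 212 genes, 30 and 201 were on the same side of both others in replicate 3 of the WT CD115- CDPs, which carries the same number. The share of all genes on each side in that WT library was not counted, so whether 30 and 201 exceed it is not known. Without replicate 3, Relb (3.18), Zbtb46 (3.26), Gzmb (3.45) and Rora (3.04) had log2 differences from KO CLPs above 3, while none of them was called with all 3 libraries.

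**Figure D3:**
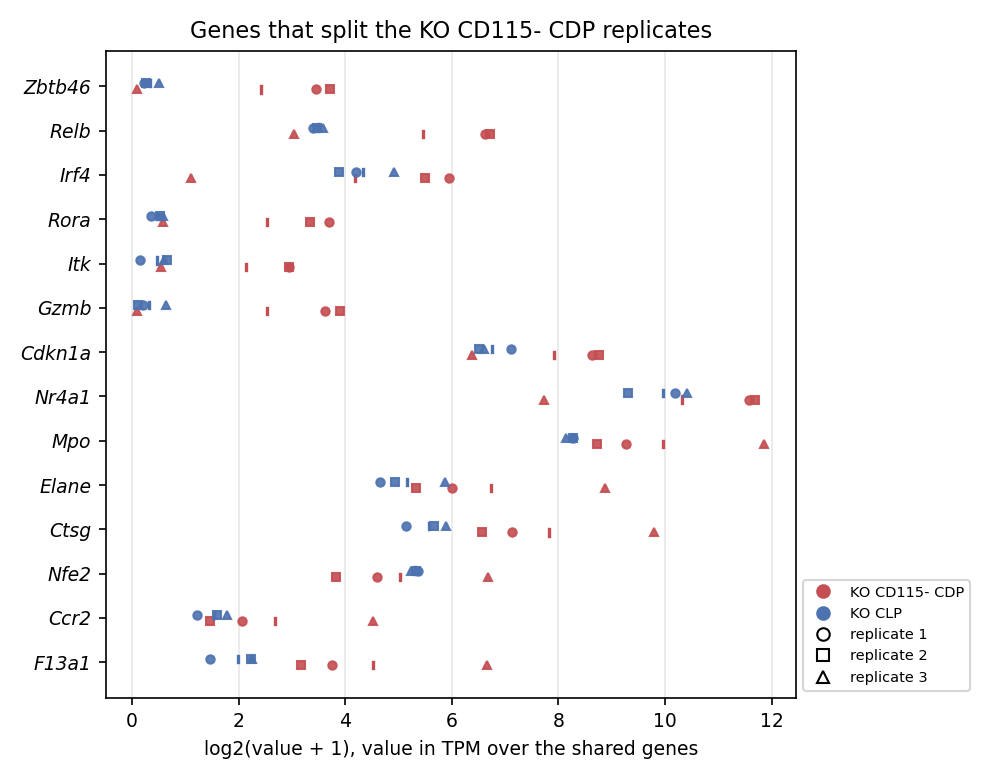
Levels of 14 genes in the 6 KO libraries on a log2(TPM + 1) axis, 1 point for each library and a bar at each group mean, chosen after their values were seen. Circles and squares (replicates 1 and 2 of the CD115- CDPs) lie together and apart from the triangle (replicate 3), to its right for Zbtb46 to Nr4a1 and to its left for Mpo to F13a1, while the 3 KO CLP points mostly lie closer together.

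The same comparison in WT libraries gave 48 genes higher (0.389% of 12343) and 252 lower (2.04%) in CD115- CDPs than in CLPs. Of the 48, 28 were also called higher in KO libraries and 44 had the same sign, and of the 252, 125 were also called lower and 235 had the same sign. In all, 153 of 300 differences were called with TRIM33 and without it, and none was called in opposite directions. The median difference was 1.97 in WT and 1.62 in KO libraries over the 48, and -1.43 and -1.03 over the 252, both sets being chosen on the WT values. The median over all genes was -0.19 in WT libraries. In the other direction, 99 of the 114 genes called higher in KO libraries and 905 of the 915 called lower had the same sign in WT libraries. The number 153 rested on single libraries, since it was 365 without WT CD115- CDP replicate 3 and 171 without the KO one, and 0 without WT CLP replicate 2 or 3. It was 78, 60 and 62 under the other 3 scalings.

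Many of the genes described above were called in both genotypes. On the lower side were Rag1, Rag2, Igll1, Pou2af1, Cplx2, Bst1 and Cd79b of the early B list, and Bcl11a, Ets1, Mycn and Mycl among the transcription factors. Rag1 differed by -3.34 ± 0.43 in WT libraries (adjusted p = 0.0162, limma), with 3.2, 4.58 and 0.697 TPM in CD115- CDPs and 31.1 to 37.9 TPM in CLPs. On the higher side were Spi1, Nfil3, Cd14, Tlr2, Il2rb, Tcf7, Cpa3, Prg2, Epx, Cxcl10 and Ccl5. Of the 12 genes with the largest excess in KO CD115- CDPs, 8 were called in WT libraries, as were 8 of the 12 with the largest deficit. Over all genes, 0.389% were called higher and 2.04% lower in WT libraries. Hist1h2ap, Hist1h2ao and Mir6907, whose values are uncertain, are among these genes. Pool and table coincide in both genotypes, so a difference between the tables would also be called in both. In contrast, none of the 8 granulocyte genes was called in WT libraries, where the median of the granulocyte list was -0.06. The interaction, the KO difference minus the WT difference, was not called for these 8 genes (for Ngp 2.63, adjusted p = 0.83, limma, and 0.211 with same-numbered KO and WT libraries of a pool as a block). The WT values spread widely, with Ngp at 31.0, 92.0 and 442 TPM in CD115- CDPs and 133, 327 and 44.1 TPM in CLPs, so a change of these differences with genotype was not detectable.

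**Figure D4:**
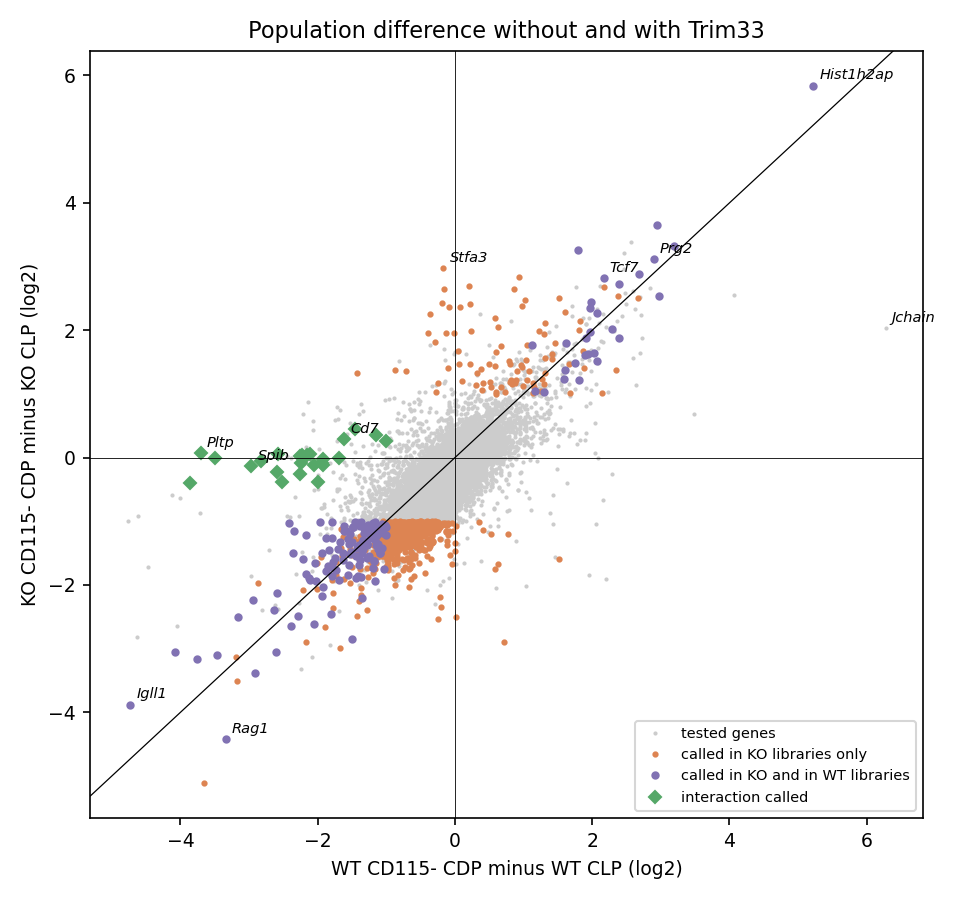
Log2 difference between CD115- CDPs and CLPs in WT libraries (horizontal) and in KO libraries (vertical) for 12343 genes, with genes called in KO libraries only (orange), in both (purple) and in the interaction (green diamonds), and the line of equal differences. Most called genes lie along the line, the 24 green genes lie near 0 vertically and left of 0 horizontally, and Stfa3 lies near 0 horizontally.

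The interaction was called for 24 genes (0.194% of 12343), all of them positive and all among the genes lower in WT CD115- CDPs than in WT CLPs. In each of the 24 the KO pools differed by less than 1 on the log2 scale, and the mean was lower in KO than in WT libraries in both pools. None of the 1029 genes called between the KO pools was called in the interaction, and 7 of them were with the replicate block (Ctsh, Hbb-bt, Lgals1, Slpi, Smim5, Il18r1 and Mir7036). With that block, same-numbered KO and WT libraries of a pool, 61 genes were called, 55 positive and 6 negative, the 24 among them. Pltp, a phospholipid transfer protein, was at 39.5, 29.6 and 25.6 TPM in WT CLPs and at 1.53, 0.624 and 2.62 TPM in WT CD115- CDPs, but at or below 0.149 TPM in all 6 KO libraries (interaction 3.77 ± 0.38, adjusted p = 0.00317, and 0.00451 with the block, limma). Spib was at 268, 203 and 190.3 TPM in WT CLPs, at 37.3, 23.2 and 22.7 TPM in WT CD115- CDPs, at 3.18, 4.26 and 4.00 TPM in KO CLPs and at 5.41, 4.52 and 1.37 TPM in KO CD115- CDPs (2.84 ± 0.48, adjusted p = 0.0492, and 0.00816 with the block). Its call was lost in 10 of the 12 fits that left out 1 library and without the filter on low values. Both genes were thus lowest in the KO libraries, where the pools overlapped.

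Ddr1, a collagen receptor (3.49 ± 0.39, adjusted p = 0.00443, limma), Cdh5, the cadherin of blood vessel walls (3.46 ± 0.31, adjusted p = 0.00173), and Slc41a2, a magnesium carrier (2.62 ± 0.30, adjusted p = 0.00443), were also lowest in the KO libraries. Their adjusted p with the block were 0.0058, 0.0045 and 0.0082. The KO pools overlapped for Ddr1 and Slc41a2. For Cdh5 they did not, with KO CD115- CDPs at 0.105 to 0.168 TPM, below every KO CLP library, as in WT libraries. Cdh5 was the only one of 5 stromal and vessel genes tested with a called interaction. It was at 35.4 to 40.0 TPM in WT CLPs and at 0.472 to 0.548 TPM in KO CLPs, whereas the collagen gene Col1a1 was at 0.268, 255 and 312 TPM in WT CLPs and at 0.232, 23.9 and 0.0813 TPM in KO CLPs. Among 18 pDC genes tested, 6 were lower in WT CD115- CDPs against 2 in KO ones, and the interaction was called for Spib, Bst2 and Cd300c. Over all genes, 2.04% were lower in WT and 7.41% in KO libraries, and 0.194% had a called interaction. Klk1 and Cd209d, at 0 in all KO libraries, could not be called between the KO pools. The median pDC difference was -1.34 in WT libraries, and the summed level of the list was 5226 to 6498 TPM in WT CLPs and 1781 to 4013 TPM in WT CD115- CDPs. Bst2 was at 983 to 1082 TPM in WT CLPs and at 405 to 541 TPM in WT CD115- CDPs, but at 150.1 to 175 TPM in KO CLPs and at 199 to 213 TPM in KO CD115- CDPs (1.5 ± 0.16, adjusted p = 0.00381, and 0.00577 with the block). The order of the pools was thus turned in the means of the KO libraries. Cd7, a T cell and progenitor surface protein, Ctsb, a lysosomal protease, and Cadm1, an adhesion molecule of cDC1s, were called as well. Because 1 was added to each value before taking logs, a gene near 0 in both KO pools could show no difference there. With 0.1 added, 2 of the 24 were called, Bst2 and Ctsb, which were also the only ones called among genes with a mean of at least 10.

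**Figure D5:**
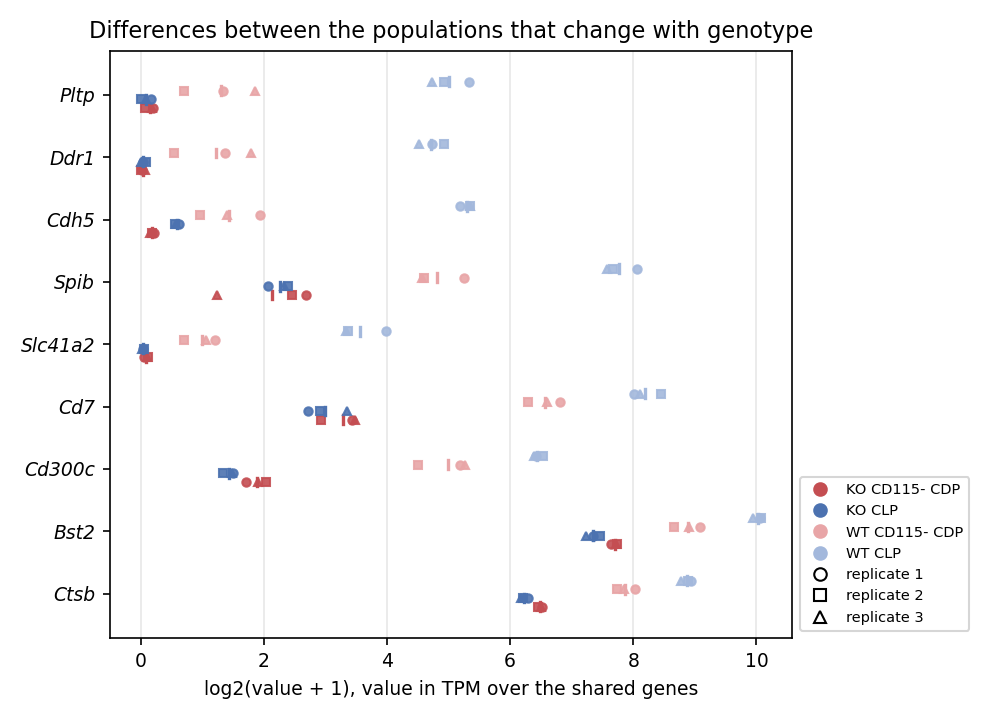
Levels of 9 genes with a called interaction in the 12 libraries of 4 groups, on a log2(TPM + 1) axis, 1 point for each library and a bar at each group mean. WT CLPs (light blue) lie to the right of WT CD115- CDPs (light red) for every gene, and the KO libraries of both pools (dark) lie to the left of both, close together.

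A list of 13 genes known from earlier results of these data to be raised in KO libraries was followed as well, which is no independent evidence of that rise. Of the 11 tested, 7 were called higher in KO CD115- CDPs than in KO CLPs and 2 lower, against 0.924% and 7.41% of all genes. The 7 were genes of the stefin cluster, which encode inhibitors of cysteine proteases (Stfa1, Stfa2, Stfa2l1, Stfa3, BC100530, Gm5483 and 2010005H15Rik), and 14.2% to 36.2% of the 50-base windows of all but Stfa3 occur in transcripts of other genes. Stfa3, none of whose 50-base windows occurs elsewhere, was at 56.2, 33.9 and 74.4 TPM in KO CD115- CDPs and at 1.75, 10.9 and 8.51 TPM in KO CLPs (2.97 ± 0.56, adjusted p = 0.0253, limma). In WT libraries it was at 0.245 to 0.799 TPM in CD115- CDPs and at 0 to 2.78 TPM in CLPs. Its interaction was 3.14 ± 0.83 (adjusted p = 0.48, and 0.0766 with the block). Lpl, a lipoprotein lipase, and Camk2b, a calmodulin-dependent kinase, were higher in KO CLPs, with Lpl at 25.4 to 34.9 TPM against 1.7 to 7.9 TPM (-2.50 ± 0.44, adjusted p = 0.0233). The stefin genes and Lpl thus stood on opposite sides of the pools. The 4 to 5 of the 7 that were called under the other scalings included Stfa2 and Stfa3. On the lower side, 2, 1 and 0 genes of the list were called under FPKM as deposited, median ratio scaling and quantile normalization.

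The differences of 2 histone genes, Hist1h2ap with the largest of all named genes and Hist1h2ao, are uncertain. Hist1h2ap was at 1349, 1608 and 1488 TPM in KO CD115- CDPs and at 13.1, 33.6 and 34.2 TPM in KO CLPs (5.84 ± 0.34, adjusted p = 0.00212, limma), and Hist1h2ao was at 94.6 to 115 TPM against 3.26 to 22.0 TPM (3.65 ± 0.56, adjusted p = 0.0207). Both encode histone H2A, and 93.1% and 93.5% of their 50-base windows occur in transcripts of other genes. In the FPKM of multipotent progenitors, deposited in a further table, Hist1h2ap was at 450 to 625 in WT and KO libraries, near the 518 to 961 of all CD115- CDPs and far from the 6.22 to 24.4 of all CLPs. Of 64 histone genes tested, 3 were called higher (with Hist1h3b) and 1 lower (Hist2h2be), and 48 had a difference above 0. The shares over all genes were 0.924% higher, 7.41% lower and 26.4% with a difference above 0. The median of the list was 0.30, where that of all genes was -0.33, and 2, 5 and 6 were called higher under the other 3 scalings.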

How the data were processed

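RNA of sorted mouse bone marrow progenitors was sequenced as 50-base single-end reads. The authors deposited 1 table per population with FPKM values per gene and library, without read counts. Per the labels, SOAPnuke 1.5.2 filtered reads, and Bowtie2 2.2.5, RSEM 1.2.12 and HISAT2 2.0.4 are named beside the build mm10. The tables of CD115- CDPs and CLPs list 19710 and 18378 genes and were joined on the gene identifier. The 18169 shared genes were rescaled to a sum of 1000000 per library (TPM), and those with a mean of at least 1 over 12 libraries (12343) were tested on log2(TPM + 1) with limma 3.58.1 in R 4.3.3, moderated with a trend on mean level, in 3 fits: 6 KO libraries, 6 WT libraries and, for the interaction, all 12. A fold change on this scale understates that of low genes. P-values were adjusted after Benjamini and Hochberg, and a call needed 0.05 or less together with a log2 difference of 1 or more in size. Depth was estimated from the steps of low values as 19.3 to 21.3 M reads per library.

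The genes named were Trim33, the genes of the sort, the 12 highest and 12 lowest called genes with separate libraries and a mean of at least 10 in the higher group, the 6 most positive and 6 most negative interactions (none was negative), and members of gene lists. Of these, 2 genes are not reported here. The comparison and the lists were chosen with earlier results of these data known. Same-numbered KO CD115- CDPs and KO CLPs did not deviate together (correlations 0.03, -0.07 and -0.13). Same-numbered KO and WT libraries did within CD115- CDPs (0.40, 0.64 and 0.77) and within CLPs (0.37, 0.29 and 0.12), so blocked values stand beside the interaction. Differently numbered CD115- CDPs also did, at 0.64 for KO 1 with WT 2 and 0.36 for KO 2 with WT 1. Pairs of replicate 3 with another number lay between -0.76 and -0.45. The numbers thus set CD115- CDP replicate 3 apart but did not tell replicates 1 and 2 from each other. Differently numbered CLPs lay between -0.35 and 0.20. Alternatives were other scalings, pseudocounts, filters, weights, blocks and single libraries left out. Promoters came from RefSeq (GRCm38.p6).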

Additional observations from a re-analysis of the deposited data

Results flagged for a closer look

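For 10 genes named above, the difference between CD115- CDPs and CLPs itself differed between KO and WT libraries, by the test of the interaction (limma, adjusted p at most 0.05 over 12343 genes). The KO difference minus the WT difference on the log2(TPM + 1) scale was 3.77 for Pltp, 3.49 for Ddr1, 3.46 for Cdh5, 2.84 for Spib and 2.62 for Slc41a2. It was 1.91 for Cd7, 1.90 for Cd300c, 1.90 for Cadm1, 1.5 for Bst2 and 1.27 for Ctsb. In each of the 10, WT CD115- CDPs were lower than WT CLPs, and the difference between the KO pools was below 1 in size. With 0.1 added in place of 1, only Bst2 and Ctsb kept the call. That of Spib was lost in 10 of the 12 fits that left out 1 library. Pltp, Ddr1, Slc41a2 and Cadm1 had means of at most 0.114 TPM in both KO pools, where this scale could show no difference.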

How the results depend on the processing

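With 3 libraries per group, the calls depended on single libraries, and depth is known only as an estimate. Between the KO pools, 114 genes were higher and 915 lower. Under FPKM as deposited, median ratio scaling and quantile normalization the lower genes numbered 245, 220 and 148. Without a filter the counts were 47 and 384, with a mean of at least 10 they were 63 and 593, and with no minimum fold 247 and 2211. Library weights gave 529 higher. Leaving out 1 library gave 2 to 451 higher and 4 to 1682 lower genes. The replicate block, whose numbers do not pair these pools, left 1 higher and 1 lower. The WT comparison called 300 genes, 167 after median ratio scaling, 184 after quantile normalization, 119 without a filter, 175 with a mean of at least 10, 1224 with weights, 64 with the replicate block and 0 to 1339 with 1 library left out (0 without WT CLP replicate 2). The interaction called 24 genes, 2 with 0.1 added in place of 1, 2 with a mean of at least 10, 541 with weights, 61 with the block and 15 to 33 with 1 library left out. Of the differences called in both genotypes, 153 in all, there were 78, 60 and 62 under the 3 other scalings, 41 without a filter, 101 with a mean of at least 10, 630 with weights, 1 with the block, 264 with no minimum fold and 0 to 365 with 1 library left out. The cause of these shifts was not tested.

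Of the single genes, the Trim33 difference of -0.18 turned to 0.0095 with FPKM as deposited, 0.15 after median ratio scaling, 0.27 after quantile normalization and 0.41 with weights, and ranged from -0.44 to 0.18 with 1 library left out. That of Cd34, -0.08, turned to 0.12 with FPKM as deposited and 0.27 after median ratio scaling, and ranged from -0.41 to 0.11, being 0.06 without CD115- CDP replicate 1. Of 362 list members tested, which were followed under fewer alternatives, 46 had the other sign after median ratio scaling and 24 without CD115- CDP replicate 3. An alternative leaving out genes whose lengths differ between the tables was not run, since all 18169 shared genes carry the same transcripts in both.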

Other observations

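Some genes outside the largest differences were also called in both genotypes, and those given here were chosen after their values were seen. Higher in CD115- CDPs were Cxcl2, Hcar2, Vdr, Clec4e and Il1b. Cxcl2, a neutrophil chemokine, had a mean of 126 TPM in KO CD115- CDPs and 33.6 TPM in KO CLPs, with a log2 difference of 1.88 in KO and 2.39 in WT libraries (adjusted p = 0.0227 and 0.0105, limma). Hcar2, a receptor for nicotinic acid and ketone bodies, differed by 2.27 and 2.07, Vdr, the vitamin D receptor, by 1.63 and 1.94, Clec4e, a receptor for mycobacterial glycolipid, by 1.80 and 1.61, and Il1b, the cytokine interleukin 1 beta, by 1.65 and 2.03. On the lower side stood Socs3, a brake on cytokine signalling, at a mean of 54.7 against 161 TPM in KO libraries (-1.54 in KO and -1.26 in WT libraries), and Malat1, a nuclear noncoding RNA, at 89.9 against 328 TPM (-1.94 and -1.17).

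Among the 7 genes called between the KO pools whose interaction was called only with the replicate block, Ctsh and Il18r1 moved in opposite directions. Ctsh, a lysosomal protease, was at 15.1, 17.4 and 28.6 TPM in KO CD115- CDPs and 5.81, 8.15 and 7.27 TPM in KO CLPs, but at 135, 90.8 and 252 TPM in WT CD115- CDPs and 244, 255 and 219 TPM in WT CLPs (interaction 2.07, adjusted p = 0.236, and 0.00781 with the block, limma). Il18r1, a receptor for interleukin 18, was at 15.8, 12 and 13.6 TPM in KO CD115- CDPs and 48.4, 39.6 and 48.9 TPM in KO CLPs, against 8.32 to 12.2 TPM and 10.9 to 18.1 TPM in WT libraries (interaction -1.14, adjusted p = 0.411, and 0.0335 with the block).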
